A study of Mus musculus with 246 samples.

Results

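The anterior cingulate cortex (ACC) was compared with the 4 regions of the same brains that lie outside the prefrontal cortex. These were the nucleus accumbens shell (Nacc), the basolateral amygdala (BLA), the dorsomedial thalamus (DMT) and the ventral hippocampus (vHipp). Members were chosen by their labels alone. They are the 7 libraries labelled ACC from Ctrl_Vehicle NoInteraction mice, out of 246 libraries in the series, and they were set against the 28 Nacc, BLA, DMT and vHipp libraries of the same 7 animals. Medial prefrontal cortex (mPFC) libraries of these animals were left out of the test and are given only as levels.

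The study sequenced polyadenylated RNA from 6 brain regions of 41 adult male mice of the outbred, wild-type CD1 strain, with 1 library per region and mouse. Ctrl_Vehicle mice were reared with standard bedding and nesting material by dams that received the gel vehicle without drug. NoInteraction mice were killed without meeting an unfamiliar mouse, and SocialInteraction mice after an encounter of 10 minutes. ELA mice grew up under early life adversity, a period of limited bedding and nesting, with dams given vehicle (ELA_Vehicle) or SAFit2, an inhibitor of the stress protein FKBP51 (ELA_SAFit2). Each library is the pooled tissue punch of both hemispheres of 1 animal, so it holds every cell type of the punch. In such bulk samples, more cells of a type and more RNA per cell cannot be told apart.

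The ACC is a midline area of the frontal neocortex that receives input from the mediodorsal thalamus and the amygdala and is known for its part in emotional evaluation. Its excitatory neurons arise in the dorsal telencephalon, the pallium, under a small set of transcription factors, and settle in layers that differ in their targets. The hippocampus and the basolateral amygdala also hold pallial excitatory neurons, whereas the accumbens is built mainly of inhibitory projection neurons and the thalamus of excitatory neurons of diencephalic origin.

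Levels are given as CPM, read counts scaled to a common library total with the trimmed mean of M values, as the lowest, median and highest of the 7 animals. A difference is the log2 value in the ACC minus the mean log2 value of the 4 other regions, from edgeR's quasi-likelihood test with the animal as a block. Its SD is that of the 7 per-animal differences. A gene was called higher or lower where the adjusted p was under 0.05 and the log2 difference at least 1 in size. It was called above or below all 4 regions where the same held against each of them singly. Because the 4 regions are averaged on the log2 scale, a gene close to 0 in a single region can be called although other regions match the ACC.

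Total counts of the 35 libraries lay between 21645573 and 37029432, and those of the 7 ACC libraries between 26520923 and 35473484. The pallial markers matched a cortical label, with a summed level of 1627 to 1790 CPM in the ACC and at most 1084 CPM in the 28 other libraries. In the mPFC the sum was 1263 to 1745 CPM, so these markers do not tell the ACC from the mPFC. The same markers are reported further on as a gene list, so they are no separate check. Single punches stood apart. The summed level of 8 choroid plexus and ependymal genes was 4.60 to 10.0 CPM in the ACC, but 1759 to 4508 CPM in 6 BLA libraries and 32.3 CPM in the BLA library of animal 65. The Nacc library of animal 65 had the lowest striatal sum of its region at 3965 CPM, against 5122 CPM or more in the others, and the highest pallial sum at 873 CPM. In the ACC, animal 1 had the highest sum of striatal genes at 489 CPM, with 244 to 331 CPM in the others. By genes whose levels differ between individual mice, 34 of the 35 libraries matched the animal on their label. The exception was the Nacc library of animal 1, whose correlation with its own animal's profile was 0.41 against 0.54 with animal 41, and the Nacc library of animal 81 matched its animal only at 0.238. All libraries were kept under their labels. With the Nacc left out of the mean, 684 genes were called higher and 991 lower in the ACC, beside 677 and 849 with it. With the BLA left out of the mean the numbers were 727 and 760, and 656 of these lower calls were among the 849. Without the BLA and Nacc libraries of animal 65 they were 691 and 875, which keeps the 6 BLA libraries with high choroid plexus sums. Without the ACC library of animal 1 they were 672 and 826.

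Of 15915 protein-coding genes tested, 677 were called higher in the ACC (4.25%) and 849 lower (5.33%). The median difference over all genes was -0.01, which the scaling sets close to 0. By adjusted p alone 9984 genes (62.7%) passed, 4970 of them higher. Fewer genes differed from each of the 4 regions singly. Above all 4 regions stood 161 genes (1.01%) and 0.697% of the tested genes stood below all 4. All 7 ACC libraries lay above all 28 others for 4.37% of genes and below them for 1.7%, whatever their fold. Against single regions, 5.46% of genes were called higher in the ACC than in the Nacc, 3.39% than in the BLA, 9.11% than in the DMT and 4.89% than in the vHipp. Lower calls took 5.59% against the Nacc, 7.62% against the BLA, 9.97% against the DMT and 5.59% against the vHipp. Of the genes called higher, 81 were also called against only 1 single region, 201 against 2 and 234 against 3. The DMT gave the largest single-region difference for 426 of the 677 genes, the vHipp for 110, the Nacc for 93 and the BLA for 48. Of the genes called lower, 522 had an ACC median under 1 CPM, and so did 153 of the genes called higher. The share of all tested genes under 1 CPM was not counted. Such a level can still rest on many counts. Zfp503, at an ACC median of 0.89 CPM, had 164 counts over the 7 ACC libraries and was counted in each.

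**Figure D1:**
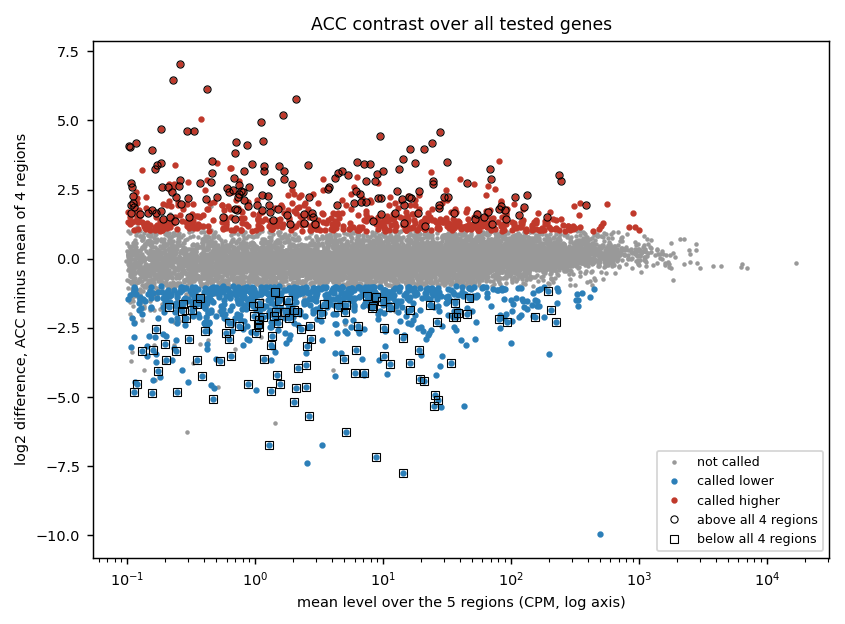
Log2 difference between the ACC and the mean of Nacc, BLA, DMT and vHipp (vertical axis) against the mean level over the 5 regions in CPM (horizontal log axis) for 15915 genes. Red points are the 677 genes called higher, blue points the 849 called lower, circles the 161 above all 4 regions and squares the genes below all 4 (0.697%).

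Most genes that rose above all 4 regions had a similar level in the neighbouring cortex. The mPFC level lay within 1 log2 unit of the ACC for 149 of the 161, the ACC was higher by 1 or more for 10, and the median difference between both cortical regions was 0.24. The share of all tested genes within 1 unit was not counted, so the 149 are not set against a background. The prior count also draws low levels together, and 32 of the 161 had an ACC median under 1 CPM. For the genes below all 4 regions the median difference between ACC and mPFC was -0.36. Across all tested genes, ACC and mPFC libraries of the same animal correlated at 0.985 to 0.992, as ACC libraries of different animals did (0.988 to 0.991). The median correlation with the ACC was 0.968 for the vHipp, 0.961 for the Nacc, 0.957 for the BLA and 0.927 for the DMT. These are descriptions across genes, which are not independent replicates.

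The 12 genes with the largest ACC excess, among those with at least 5 CPM in the ACC and above each of the animal's other regions in all 7 animals, included Krt80, Ovol2, Smim43, Fezf2, Rspo2, Hs3st2, Vip, Arhgap25, Cckbr, Prss12 and Myl4. All 12 were above all 4 regions, which the naming rule favoured. Krt80, a keratin known from epithelia, was at 5.94, 9.09 and 12.6 CPM in the ACC and between 0 and 0.808 CPM in the 28 other libraries. The ranges did not touch, and the difference was 5.77 (SD 0.39, adjusted p = 3.2e-18). Of the 12 it had the largest excess of the mean log2 level in the ACC over that in the mPFC, 1.51, and it reached 1.06 to 6.15 CPM in the mPFC. Ovol2, a zinc finger repressor of epithelial lineages, was at 5.68, 7.24 and 7.73 CPM in the ACC and at most 1.26 CPM elsewhere. Its difference was 5.21 (SD 0.56, adjusted p = 6.5e-14).

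Rspo2, a secreted amplifier of Wnt signalling, was at 35.4, 45.2 and 48.5 CPM in the ACC and at most 26.2 CPM in any other library, with a difference of 3.98 (SD 0.30, adjusted p = 8.9e-15). It had been listed among markers of the basolateral amygdala, yet the ACC exceeded the BLA by 1.15. Cckbr, the cholecystokinin receptor of the forebrain, was at 84.9, 102 and 106.5 CPM against 0.238 to 42.4 CPM, a difference of 3.5 (SD 0.36). Its ligand gene Cck was at 235, 265 and 308 CPM in the ACC, above the highest other library at 227 CPM, with a difference of 1.34 (SD 0.32, adjusted p = 8e-06). The receptor and its ligand were thus both higher in the ACC than in the 4 other regions. In the mPFC, Cckbr was at a median of 106 CPM, no lower than in the ACC. Among the 12 genes, the mean log2 level in the ACC minus that in the mPFC ranged from -0.28 for Smim43 to 1.51 for Krt80.

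Hs3st2 encodes a heparan sulfate sulfotransferase of neurons, and it was at 60.8, 68.8 and 73.2 CPM in the ACC against at most 25.7 CPM elsewhere (difference 3.95, SD 0.37). Prss12, a secreted serine protease of synapses, was at 45.2, 57.4 and 63.5 CPM against at most 18.8 CPM. Myl4, a light chain of atrial and embryonic muscle myosin, was at 19.7, 24.2 and 29.3 CPM against at most 10.1 CPM. Smim43, a gene of a small membrane protein, came closest to overlapping in the Nacc, where single libraries reached 17.5 CPM while the ACC lay at 27.1 CPM or more. None of the 12 genes overlapped between the ACC and the other 28 libraries, which the naming rule also favoured. Of all tested genes, 4.37% had every ACC library above all 28 others.

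**Figure D2:**
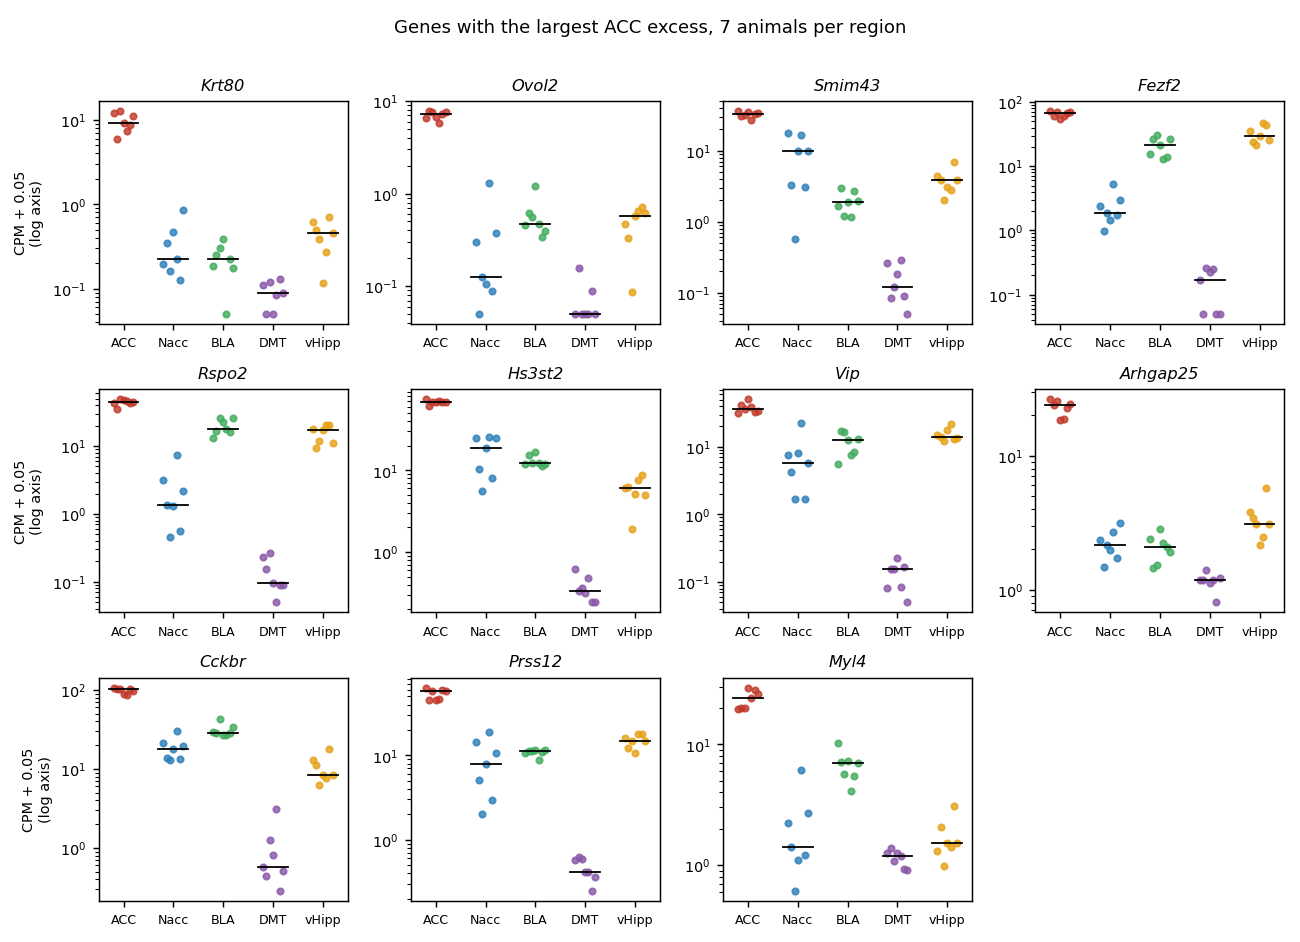
Level of 11 of the 12 genes in each library (CPM plus 0.05, log axis) by region, with 1 point per animal (7 per region) and a bar at the median. Every ACC point lies above every point of the other 4 regions in all 11 panels, which the naming rule favoured. The DMT has the lowest median in each panel.

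Of 12 transcription factors that pattern the pallium and its excitatory neurons, 9 were called higher and 0 lower, with a median difference of 2.12 beside -0.01 over all genes. The background, the share of all tested genes, was 4.25% for a higher call and 5.33% for a lower call. Only 4 of the 9 were above all 4 regions, among them Tbr1, Fezf2 and Mef2c. Tbr1, a T-box factor of deep layer and early-born excitatory neurons, was at 184, 201 and 229 CPM against 1.27 to 81.9 CPM (difference 3.25, SD 0.46, adjusted p = 4.3e-13). Fezf2, which specifies subcerebral projection neurons, was at 54.7, 67.4 and 71.8 CPM, and its largest value elsewhere was 47.7 CPM in the vHipp, where the difference was 1.02. Mef2c, an activity-regulated factor of cortical neurons, was at 837, 936 and 948 CPM against 132 to 514 CPM (difference 1.93, SD 0.17). For these 3 factors every ACC library lay above every library of the 4 other regions, as for 4.37% of all tested genes.

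Other factors called higher did not separate the ACC from the vHipp. Neurod6, a bHLH factor of pallial excitatory neurons, was at a median of 150 CPM in the ACC and 193 CPM in the vHipp, with a difference of -0.24 between them and of 3.53 in the contrast. Its relative Neurod2 was at 92.1 CPM in the ACC and 164 CPM in the vHipp. Emx1, a homeobox gene of the dorsal pallium, differed from the vHipp by 0.39 (adjusted p = 0.24), and Emx2 fell by 1.47 against it. With the DMT left out of the mean, 6 of the 12 factors were called higher. With the vHipp left out, 11 were.

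NEUROD factors bind the E-box CAGATG, and TBR1 binds T-box sites, so the start regions of these genes were searched for their letters. RefSeq start windows of 300 bases (250 before and 50 after the gene start, build GRCm38.p6) were available for 12361 of the 15915 tested genes. CAGATG or its other strand, CATCTG, was found in 1966 of 15756 windows (12.5%). It was found in 36 of 151 windows of genes above all 4 regions (23.8%), in 17.3% of windows of genes called higher and in 16.9% of those called lower. The windows of genes above all 4 regions also had a lower median GC content, 53.7% against 60% in all windows, and its part in the count was not tested. Among genes at an ACC median of at least 5 CPM the share was 15 of 77 windows (19.5%) for genes above all 4 regions and 11% for all. The T-box letters AGGTGTGA or TCACACCT were in 2 of the 151 windows (1.32%) and in 0.889% of all. A match of letters describes the window and is no evidence of binding.

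Among the genes named above, the pallial factors called higher and the genes most similar to Tbr1 (described further on), 17 of 23 had a window, and 4 held the E-box. Their windows are printed 5′ to 3′ on the strand of the gene with CAGATG in capitals, because they show where these letters lie near starts of genes that rose together in the ACC. They are Mef2c at chr13:83573357-83573656 on the plus strand (1 of its starts, letters 245 bases before it), Neurod2 at chr11:98329596-98329895 on the minus strand (118 bases before), Serpini1 at chr3:75557243-75557542 on the plus strand (49 bases before) and Arhgap25, a GTPase-activating protein gene, at chr6:87496278-87496577 on the minus strand (1 of its starts, 25 bases before).
Mef2c: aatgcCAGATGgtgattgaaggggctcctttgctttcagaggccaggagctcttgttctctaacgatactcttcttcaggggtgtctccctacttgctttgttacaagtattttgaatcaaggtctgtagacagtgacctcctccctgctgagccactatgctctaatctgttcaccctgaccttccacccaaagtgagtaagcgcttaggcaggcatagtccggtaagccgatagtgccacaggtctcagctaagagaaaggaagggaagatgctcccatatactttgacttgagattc
Neurod2: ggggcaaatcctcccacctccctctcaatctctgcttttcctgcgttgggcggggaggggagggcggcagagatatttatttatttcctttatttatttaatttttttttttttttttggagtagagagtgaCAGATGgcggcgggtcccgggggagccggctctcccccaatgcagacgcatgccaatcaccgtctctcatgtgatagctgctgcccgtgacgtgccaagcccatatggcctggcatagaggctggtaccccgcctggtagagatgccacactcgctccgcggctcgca
Serpini1: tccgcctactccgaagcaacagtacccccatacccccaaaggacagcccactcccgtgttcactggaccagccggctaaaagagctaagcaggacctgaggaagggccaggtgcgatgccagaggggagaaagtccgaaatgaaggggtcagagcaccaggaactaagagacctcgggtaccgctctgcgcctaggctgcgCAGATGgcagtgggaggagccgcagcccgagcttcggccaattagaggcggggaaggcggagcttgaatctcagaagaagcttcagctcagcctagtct
Arhgap25: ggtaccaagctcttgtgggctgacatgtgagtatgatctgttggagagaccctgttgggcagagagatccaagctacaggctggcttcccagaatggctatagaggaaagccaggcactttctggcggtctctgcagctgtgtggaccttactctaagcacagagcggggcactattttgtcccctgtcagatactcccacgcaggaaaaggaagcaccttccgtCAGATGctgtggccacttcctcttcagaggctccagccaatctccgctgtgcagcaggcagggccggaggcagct

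Markers of single cortical layers separated the ACC less than the pallial factors did. Of 12 upper layer genes 3 were called higher (Stard8, Lamp5 and Pou3f2) and 1 lower (Scnn1a), and 0 were above all 4 regions. The background was 4.25%, 5.33% and 1.01% in the same order. The median difference was 0.12. Lamp5, a membrane protein of upper layer and neurogliaform neurons, was at 118, 129 and 179 CPM in the ACC and at most 96.7 CPM in the other libraries, with a difference of 2.64 (SD 0.42, adjusted p = 2.2e-18). It exceeded the Nacc by 0.86. Cux2, a homeobox factor of the upper layers, was at a median of 101.4 CPM in the ACC and 116 CPM in the DMT, and Rorb, a nuclear receptor of thalamus-recipient cortex, was at 27.2 CPM against 90.7 CPM there. Scnn1a, a sodium channel subunit used as a marker of layer 4, was at 0.687, 0.86 and 1.4 CPM in the ACC (difference -2.0, adjusted p = 9.9e-08).

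Of 12 layer 5 genes 2 were called higher, Deptor at 1.13 and Crym at 2.07, and 0 lower (background 4.25% and 5.33%). The list median was 0.29. Crym, a thyroid hormone-binding protein, was at a median of 101.1 CPM in the ACC, 125 CPM in the Nacc, 119 CPM in the vHipp and 0.284 CPM in the DMT. Bcl11b, the factor of subcerebral neurons that striatal projection neurons also use, was at 104 CPM in the ACC and 301 CPM in the Nacc, and its difference of 0.09 did not pass the test (adjusted p = 0.44). With the DMT left out of the mean, 1 of the 12 was called higher.

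The deep layers had the highest median of the 3 layer lists. Of 12 genes of layers 6 and 6b, 5 were called higher and 0 lower (background 4.25% and 5.33%). By adjusted p under 0.05 alone, 11 of 12 had a positive difference, beside 31.2% of all genes. The median was 0.80. The summed level of the list was nevertheless higher in the Nacc (median 568 CPM) than in the ACC (429 CPM). Ccn2, a matricellular protein of layer 6b, was at 16.3, 28.5 and 47.5 CPM in the ACC (difference 2.43, SD 0.76, adjusted p = 1.5e-10). Cplx3, a complexin of layer 6b, was at 9.24, 15.3 and 21.6 CPM (difference 2.35, SD 0.76). Both were above all 4 regions, although their ACC ranges overlapped the highest other library, at 27.3 and 18.6 CPM. Rprm, a cell cycle gene of corticothalamic neurons, was at 50.2, 68.4 and 96.4 CPM with a difference of 1.69. Foxp2, a forkhead factor of layer 6, went the other way at -0.67, with a median of 23.6 CPM in the ACC, 123 CPM in the Nacc and 113 CPM in the DMT. With the Nacc or the BLA left out of the mean, 9 of the 12 were called higher, and with the DMT left out 3 were.

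**Figure D3:**
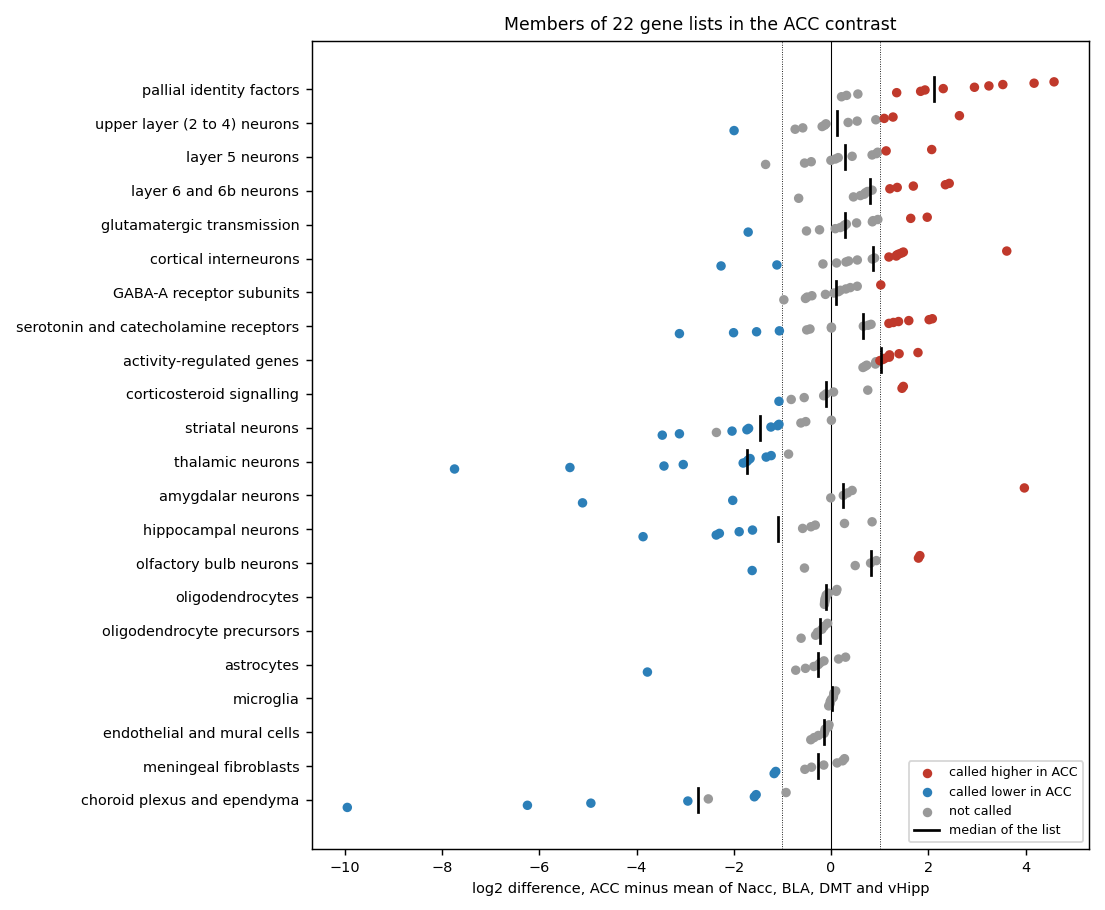
Log2 difference between the ACC and the mean of the 4 other regions for each tested member of 22 gene lists, 1 row of points per list. Red points were called higher, blue points lower and grey points neither, black bars are list medians and dotted lines mark differences of 1 and -1; the pallial list has its median at 2.12 and the choroid plexus list at -2.74.

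Of 14 genes of glutamatergic transmission, 2 were called higher and 1 lower (background 4.25% and 5.33%). Slc17a7, the vesicular glutamate transporter of cortical neurons, was at a median of 1708 CPM in the ACC with a difference of 1.64 (SD 0.42, adjusted p = 4.3e-06). It exceeded the vHipp by only 0.31. Slc17a6, its thalamic counterpart, was called lower at -1.71 in the contrast, with medians of 15.8 CPM in the ACC, 751 CPM in the DMT and 14.5 to 22.0 CPM in the other 3 regions. Nrgn, a calmodulin-binding protein of excitatory dendrites, was called higher at 1.98 and did not separate the ACC (970 CPM) from the vHipp (995 CPM). Among receptor subunits, Gria3 differed by 0.86 (adjusted p = 4e-14) and was higher in the ACC than in each other region, while Gria1 differed by -0.51 with 449 CPM in the ACC and 1220 CPM in the vHipp. These differences passed the adjusted p but not the fold that a call required.

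Of 16 genes of cortical interneurons 7 were called higher and 2 lower (background 4.25% and 5.33%), with a median of 0.87. The summed level of the list had a median of 1296 CPM in the ACC and 766 CPM in the DMT. That median was higher in the Nacc (2463 CPM), the BLA (1704 CPM) and the vHipp (1345 CPM). Against single regions the list median was -0.22 for the Nacc, -0.13 for the BLA, 0.26 for the vHipp and 3.62 for the DMT. Vip, the neuropeptide of disinhibitory interneurons, was the 1 member above all 4 regions, at 32, 35.8 and 50.1 CPM in the ACC and at most 22.2 CPM elsewhere (difference 3.61, SD 0.19, adjusted p = 7.3e-13). Sst, the peptide of dendrite-targeting interneurons, was called higher at 1.39, but its median was 152 CPM in the ACC, 164 CPM in the Nacc, 217 CPM in the BLA and 2.34 CPM in the DMT. Pvalb, the calcium-binding protein of fast-spiking interneurons, was at 20.4, 25.4 and 30.1 CPM with a difference of 0.85 (adjusted p = 8.3e-07), short of the fold of a call. Calb2, which is abundant in the midline thalamus, was called lower at -2.26, with 382 CPM in the DMT and 10.5 CPM in the ACC. Gad2, the GABA-synthesizing enzyme shared by all of these cells and by striatal projection neurons, was at 179 CPM in the ACC and 870 CPM in the Nacc. With the DMT left out of the mean, 2 of the 16 were called higher. Of 12 GABA-A receptor subunits 1, Gabra3, was called higher at 1.02 (background 4.25%).

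The receptors of serotonin and catecholamines were split, with 6 of 17 called higher and 4 lower (background 4.25% and 5.33%). Htr2a, the serotonin receptor of cortical layer 5 neurons, was at 47, 61.4 and 65.6 CPM in the ACC (difference 2.02, SD 0.20, adjusted p = 3e-17). The Nacc came close, at a median of 50.1 CPM and a difference of 0.29. Adra1d, an alpha-1 adrenergic receptor, was called higher at 2.08 but had a median of 24 CPM in the ACC and 27.6 CPM in the vHipp. Htr2c, a receptor abundant in choroid plexus and basal forebrain, was at 37.8 CPM in the ACC and between 185 and 197 CPM at the medians of Nacc, BLA and DMT (difference -1.53, adjusted p = 1.3e-10). Drd2 fell by 3.12 on the log2 scale, whereas Drd1 gave no difference in the contrast (0.01, adjusted p = 0.98). Its median of 18.3 CPM in the ACC lay between 226 CPM in the Nacc and 2.1 CPM in the DMT. Without the DMT in the mean, 3 were called higher and 5 lower.

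Of 9 genes of corticosteroid and stress signalling, 2 were called higher and 1 lower (background 4.25% and 5.33%). Crhr1, the receptor of corticotropin-releasing hormone, was at 18.6, 24.6 and 28.2 CPM in the ACC against 2.98 to 19 CPM in the other libraries (difference 1.46, SD 0.15, adjusted p = 3.4e-12). The lowest ACC library lay just under the highest other library, the Nacc of animal 65, and the other 6 lay above the range. Crhbp, which binds the hormone, was called higher at 1.49. Nr3c2, the mineralocorticoid receptor, was called lower at -1.07, with 33.7 CPM in the ACC and 223 CPM in the vHipp, where it is known to be abundant. Nr3c1, the glucocorticoid receptor, differed by 0.05 (adjusted p = 0.17). Fkbp5, which encodes the drug target FKBP51, was at 20.8, 21.4 and 24.3 CPM in the ACC, at medians of 47.3 CPM in the Nacc, 38.3 CPM in the BLA and 57.5 CPM in the vHipp and at 21.1 CPM in the DMT. Its difference of -0.82 (SD 0.08, adjusted p = 5e-13) was negative in all 7 animals and did not reach the fold of a call. Without the DMT in the mean, 1 of the 9 genes was called higher and 2 lower.

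Activity-regulated genes were mostly called higher in the ACC of these mice, which had met no unfamiliar mouse. Of 14 such genes 8 were called higher and 0 lower (background 4.25% and 5.33%). All 14 had a positive difference with an adjusted p under 0.05, against 31.2% of all genes. Egr3, an immediate early transcription factor, was at 130, 140 and 178 CPM in the ACC, above the highest other library at 121 CPM (difference 1.79, SD 0.24, adjusted p = 1.4e-19). Npas4, which neuronal depolarization induces, was at 18.7, 29.2 and 54.6 CPM (difference 1.20, SD 0.22), and single libraries elsewhere reached 49.6 CPM. Arc, an effector of synaptic plasticity, had the largest SD of the 14, and ranged from 31.6 to 180 CPM among ACC libraries (difference 1.20, SD 0.69). The differences were largest against the DMT. Against the DMT 11 of the 14 were called higher, against the vHipp 6, and against the Nacc and the BLA 2 each. With the DMT left out of the mean, 1 of the 14 was called higher.

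The genes with the largest ACC deficit, among those with at least 5 CPM in the mean of the other regions and below each of them in all 7 animals, were Gbx2, Frem3, Slitrk6, Dlk1, Slc10a4, Nts, Agt, Epn3, Dgkk, Nhlh2, Zfp503 and Igsf1. All but Dgkk were below all 4 regions. Gbx2, a homeobox factor of thalamic neurons, had 2 counts in the 7 ACC libraries together and 0.12 to 73.3 CPM in the other 28. The mean of the other libraries was 1720 times the pooled ACC level, with an exact Poisson interval of 476 to 14201 that covers counting error of the ACC only (95%). The DMT set most of that mean, at 67.4 CPM beside 2.63 CPM in the Nacc, 1.16 CPM in the vHipp and 0.49 CPM in the BLA. The log2 difference, which weights the regions equally, was -7.75. Frem3, an extracellular matrix protein, had 7 counts in 4 of the 7 ACC libraries and 0.788 to 40.7 CPM elsewhere (ratio 303, interval 147 to 754). Its mean was also highest in the DMT, at 34.2 CPM, with 2.30 to 4.43 CPM in the other regions, and its log2 difference was -7.16. Both genes were thus at the limit of detection in the ACC.

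Dlk1, an imprinted ligand-like membrane protein, was at 0.122, 0.522 and 1.21 CPM in the ACC and at medians of 78.4 CPM in the Nacc and 39.1 CPM in the BLA (difference -5.11, SD 1.0, adjusted p = 1e-09). Nts, the neuropeptide neurotensin, was at 0.163, 0.572 and 0.973 CPM against medians of 31.1 CPM in the Nacc and 19.8 CPM in the BLA (difference -3.82, SD 0.44). Zfp503, a zinc finger gene of striatal development, was at 0.529, 0.89 and 1.25 CPM against 3.81 CPM or more in every other library (difference -3.53, SD 0.50). Slitrk6, a neurite-regulating membrane protein, was at 0.122, 0.215 and 0.311 CPM, with a median of 112 CPM in the DMT.

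Agt stood apart because it marks astrocytes, not neurons. This gene of angiotensinogen was at 1.95, 2.12 and 2.52 CPM in the ACC and at 3.8 CPM or more in the other libraries, with medians of 7.96 CPM in the Nacc, 25.2 CPM in the BLA, 104.95 CPM in the DMT and 25.3 CPM in the vHipp. Its difference was -3.78 (SD 0.28, adjusted p = 1.4e-12). Of the 8 further astrocyte genes 0 were called in either direction, and their differences ranged from -0.73 for Aqp4, a water channel, to 0.30 for Slc1a2, a glutamate transporter. The list as a whole had a median of -0.26.

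**Figure D4:**
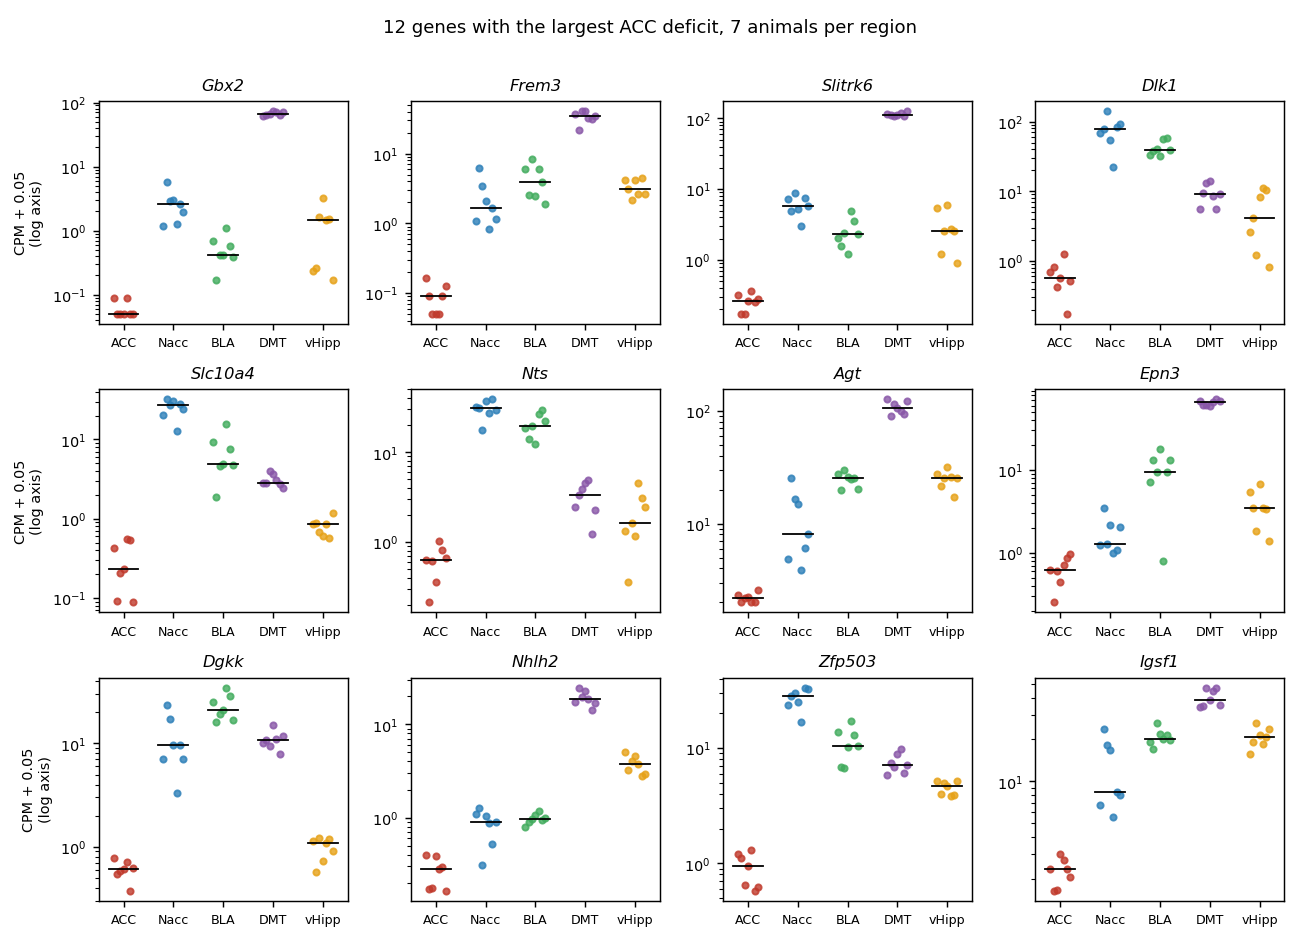
Level of the 12 genes with the largest ACC deficit in each library (CPM plus 0.05, log axis) by region, with 1 point per animal (7 per region) and a bar at the median. The ACC has the lowest median in every panel, and Gbx2 was counted in only 2 of 7 ACC libraries, so its other ACC points lie at the offset of 0.05.

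Of 11 thalamic genes 10 were called lower (background 5.33%), with a median of -1.73. Against the DMT alone all 11 were called lower with a median of -5.38, and against the Nacc and the BLA 3 each. Tcf7l2, a thalamic transcription factor, was at 2.81, 3.17 and 4.67 CPM in the ACC and at a median of 459 CPM in the DMT. Of 12 striatal genes 8 were called lower, and all 12 were against the Nacc (median -5.16) and against the BLA (median -3.24). Against the DMT 7 of the striatal genes were called higher in the ACC, and against the vHipp 6. Adora2a, the adenosine receptor of indirect pathway neurons, was at 1.91, 2.24 and 13.3 CPM in the ACC, and its highest value belonged to animal 1, the library with the highest striatal sum. Without animal 1 the count was again 8, and leaving out any other animal gave 7 or 8. With the Nacc left out of the mean 2 striatal genes were called lower and with the BLA left out 5, and with the DMT left out 4 of the 11 thalamic genes were.

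Of 10 hippocampal genes 5 were called lower (background 5.33%, and 4.25% for a higher call). Among them were Prox1, a factor of dentate granule cells, at -1.89 and Zbtb20, a transcriptional repressor of hippocampal neurons, at -1.62. Of 7 amygdalar genes 2 were called lower and Rspo2 higher, with a list median of 0.25. Of 8 choroid plexus and ependymal genes 6 were called lower, with a median of -2.74. Ttr, the transthyretin gene of the choroid plexus, was at most 0.0814 CPM in the ACC and at a median of 2502 CPM in the BLA. The BLA punches had the highest sum of these genes in 6 of 7 animals, and with the BLA left out of the mean 5 of the 8 were called lower. Of 7 olfactory bulb genes 2 were called higher, Eomes at 1.83 and Cdhr1 at 1.80, and 1 lower, Slc6a3, the dopamine transporter, at -1.62 and below all 4 regions. The levels of Eomes and Cdhr1 rested on the ACC library of animal 81, at 4.56 and 34.4 CPM against medians of 0.115 and 6.05 CPM, and 1 of them was called without this animal, as also without animal 1 or animal 41. In the SocialInteraction mice, whose contrast is given further on, Eomes was at -0.99 (adjusted p = 0.49) and Cdhr1 at 0.91, short of the fold of a call.

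Apart from Agt, no gene of the glial and vascular lists was called in the ACC contrast. Of 9 oligodendrocyte, 6 oligodendrocyte precursor, 8 microglial and 8 endothelial and mural genes 0 were called in either direction. By adjusted p alone, 5 of the 6 precursor genes and 6 of the 8 endothelial and mural genes were lower, beside 31.5% of all genes, with list medians of -0.23 and -0.14. The summed level of the oligodendrocyte genes ranged from 2463 to 5359 CPM among ACC libraries, with the highest value in animal 65, and from 5317 to 6449 CPM in the DMT. Microglial genes had a median difference of 0.02. Of 8 meningeal fibroblast genes 2 were called lower (background 5.33%), Dcn at -1.17 and Igf2 at -1.14, and 0 higher.

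Across the 35 libraries, the genes whose levels followed Tbr1 most closely among 11647 genes with at least 5 CPM were Vxn (Pearson's r = 0.977), Prss12 (0.976), Serpini1 (0.972), Fhl2 (0.967) and Wnt7b (0.961). The libraries share animals and regions, so these values describe the likeness of profiles and carry no test. Within the 28 libraries outside the ACC the values were 0.963, 0.962, 0.956, 0.955 and 0.938 in the same order. These 28 were among the 35 libraries by which the genes were picked, so the values are no separate check. Vxn, a gene of a neurogenic differentiation factor, was at a median of 678 CPM in the ACC. Fhl2, a LIM-domain adaptor protein gene, differed by 2.46. Serpini1, the protease inhibitor neuroserpin, differed by 1.51, and Wnt7b, a Wnt ligand of the cortical plate, by 1.36.

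The same contrast was then fitted in 6 Ctrl_Vehicle mice killed after social interaction, which share no library with the first set. Of 15796 genes tested, 659 were called higher (4.17%) and 885 lower (5.6%). Of the higher calls 573 were shared, which is 84.6% of the first set and 86.9% of the second. Of the lower calls 690 were shared (81.3% and 78%). Above all 4 regions stood 159 genes, 131 of them in both sets, and below all 4 stood 120, with 76 in both. No gene was called in opposite directions. Of 1495 genes called in the first set and tested in both, 1491 had the same sign in the second, and all 24 named genes were called the same way. Fezf2 differed by 4.18 in the first set and 4.21 in the second.

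**Figure D5:**
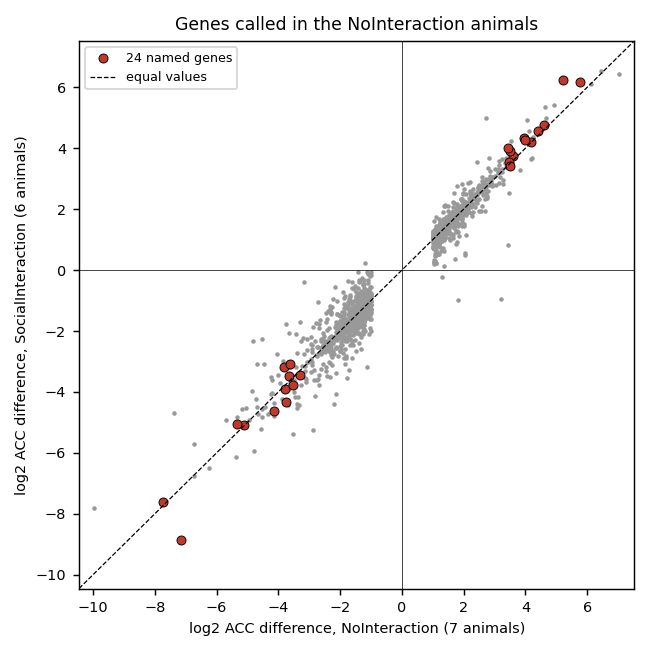
Log2 ACC difference in the SocialInteraction mice (vertical axis, 6 animals) against that in the NoInteraction mice (horizontal axis, 7 animals) for the 1495 genes called in the latter and tested in both. The 24 named genes (red) and most others lie near the dashed line of equal values; 1491 have the same sign, while genes called lower scatter more widely.

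Whether the regional profile of the ACC moved with rearing, drug or social interaction was tested as a difference of the ACC contrast between conditions, over the 5 regions of all 41 mice with the animal as a block. By edgeR's quasi-likelihood test, 0 of 17255 genes passed an adjusted p of 0.05 in any of the 3 comparisons. For ELA_Vehicle against Ctrl_Vehicle without interaction, 672 genes (3.89%) had an unadjusted p under 0.05 and the smallest adjusted p was 0.069, for Cd6, a lymphocyte receptor gene. For ELA_SAFit2 against ELA_Vehicle it was 573 genes (3.32%), and for SocialInteraction against NoInteraction in Ctrl_Vehicle mice 1421 genes (8.24%). No other tool was run on these 3 comparisons. For the 1526 genes called in the ACC contrast, which are among the 17255, the median absolute change was 0.19, 0.18 and 0.17 in the same order. The 24 named genes changed by between -1.70 and 1.64, with adjusted p of at least 0.52. A p above the threshold does not show that the contrast was equal between conditions. Without the block, 3 genes passed for ELA_SAFit2 against ELA_Vehicle, namely Doc2g (adjusted p = 0.0014), Eomes (0.026) and Scgn (0.043), for which the fit with the block gave 0.84, 0.84 and 1. Eomes and Doc2g are markers of olfactory bulb neurons, and in the control mice they reached 4.56 and 17.1 CPM in the ACC library of animal 81, against medians of 0.115 and 2.83 CPM.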

How the data were processed

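Gene-level estimated counts of 56691 genes in 246 libraries were deposited by the authors as 1 table. Its name refers to salmon. The submitters' processing notes name STAR, DESeq2 and the builds GRCm39 and mm39, with versions not given in the sources used here. Libraries were stranded, poly-A selected and made from RNA of an integrity number above the study's limit. The estimated counts were rounded, since 12.12% of values were not whole. Annotation came from GENCODE M21 and RefSeq (GRCm38), another build than that of the files, and was used for gene types, names and start windows only. Gene IDs matched M21 for 52073 genes, 978 were typed through RefSeq symbols and 3640 stayed untyped and were left out.

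The test took protein-coding genes that summed to 100 counts or more over the libraries and were counted in 6 or more of them. It was run in edgeR 4.0.16 (R 4.3.3) by the quasi-likelihood test with Benjamini-Hochberg adjustment, with region and animal as terms over 35 libraries. The mean of the 4 regions weighted each region equally. Levels in CPM were scaled over 42 libraries, mPFC included, and per-animal log2 differences used a prior count of 2. On counts simulated for this contrast (15881 genes, 200 changed), 100% of genes changed by 1.5 or 2.5 were recovered with 0 false calls. By adjusted p alone 8 unchanged genes passed. The test between conditions, simulated on 1000 genes, recovered 99% and 100% with 6 false calls. Both simulations used a single spread for all genes and changed no gene of low counts. The first also gave the other 4 regions equal means. Recovery of genes of low counts, or with regions as unlike as here, is thus not covered.

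Animal numbers in the labels pair the libraries, as the regions of 1 number come from 1 mouse. Deviations from the region mean correlated within animals at medians of 0.156 to 0.208 between the ACC and the other regions, and at -0.0535 to -0.0289 between animals. Named genes were the 12 with the largest difference in each direction among genes with a mean of at least 5 CPM in the higher group and the same order against each region in all 7 animals. The contrast, the 22 gene lists and the naming rule were chosen with earlier results of these data known. Alternatives were another normalization, DESeq2 1.42.0, other filters, no block, 1 animal or 1 region left out, and libraries that stood apart left out. Total counts give small counting errors for all but the lowest genes, and counting intervals cover counting error only. Results on some genes are not reported here.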

Additional observations from a re-analysis of the deposited data

Results flagged for a closer look

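In 3 of 46 sums of gene lists and named genes tested over the 7 ACC libraries, 1 library stood apart by a gap above Dixon's critical value at 95%, and chance flags about 1 in 20 groups. The striatal sum was 489 CPM in animal 1 and at most 331 CPM in the others (gap 0.645 of the range). The olfactory bulb sum was 78.6 CPM in animal 81, with 39.7 CPM in the next library (gap 0.728). The choroid plexus and ependymal sum was 10.0 CPM in animal 65, with 6.74 CPM in the next (gap 0.607).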

How the results depend on the processing

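Of 83 alternative values of the main counts, 78 stayed within 1.5 times the reported value. All 408 alternative values of the 24 named genes kept their direction and an adjusted p under 0.05. The fold of a call was not part of that check. With all gene types, 1032 genes were called higher and 263 were above all 4 regions. By adjusted p alone, 4970 were higher and 5014 lower. Leaving out 1 animal at a time gave 629 to 680 higher, 766 to 849 lower, 140 to 157 above all 4 and 96 to 121 below all 4. Without the replicate block, 675 were called higher and 839 lower, 670 and 828 of them shared with the paired fit. Without the block the contrast differed for 3 genes between ELA_SAFit2 and ELA_Vehicle, where the paired fit gave 0, and the cause was not tested. DESeq2 called 677 higher and 902 lower. With the DMT left out of the mean, 497 were called higher, 430 of them shared. Libraries were left out for standing apart, and the BLA from the condition test, after the data were seen. RLE size factors, the other scaling tried, called 674 higher and 854 lower.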

Other observations

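Genes of the muscle sarcomere were a further group among those above all 4 regions, and they were chosen after their values were seen. Of 28 such genes looked up, 24 were tested, 10 were called higher, 2 lower, and 9 were above all 4 regions, beside 4.25%, 5.33% and 1.01% of all tested genes. Nothing is read from these counts, since the group was picked for its values. Of 7 tested genes of the striated muscle myosin heavy chains, 5 were above all 4, namely Myh1, Myh2, Myh3, Myh4 and Myh13. Myh3, the embryonic heavy chain, was at 3.17, 5.53 and 7.96 CPM in the ACC (lowest, median and highest), with medians of 0.36 to 1.26 CPM in the other regions (difference 3.16, SD 0.37). Myl1, a fast muscle light chain, was at 2.84, 3.5 and 4.30 CPM (difference 3.36, SD 0.45), and Tcap, the titin cap, was at 2.12, 3.17 and 5.07 CPM (difference 3.41, SD 0.35). Tnnc1, the troponin C of slow and cardiac muscle, was at 8.20, 13.8 and 18.6 CPM (difference 2.94, SD 0.51).

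The mPFC was close to the ACC for these genes, with medians of 4.78 CPM for Myh3, 3.63 CPM for Myl1 and 3.67 CPM for Tcap. Other muscle genes were split. Acta1, the skeletal actin, was at 5.95, 6.59 and 6.90 CPM in the ACC (difference 0.89, adjusted p = 4.1e-11 by edgeR), higher than in the animal's other regions in all 7 animals. Neb, the nebulin gene, differed by -0.17 and Actn2, an actinin of muscle and neurons, by 0.23, and neither passed the test. Mb, the myoglobin gene, had a highest ACC value of 0.0624 CPM, and Mylpf, the fast regulatory light chain, one of 0.437 CPM. The genes Ckm, Actc1, Tnnc2 and Myl3 had too few counts to be tested. Myh7, the slow heavy chain, differed by -0.31, and Tnnt1, the slow troponin T, was called lower at -2.26 with a median of 53.1 CPM in the DMT. The Myh genes are near-identical in sequence over long stretches, so the split of reads between them is uncertain.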
